A study of Homo sapiens with 27 samples.

Results

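SK-N-SH cells carrying MAML3 without its first exon (dEx1) were compared with SK-N-SH cells carrying the empty vector. The comparison uses 6 of the 27 libraries in the series, 3 of dEx1 and 3 of vector, chosen by the construct and cell line in their labels. All 23230 gene symbols of the count table entered, and 14674 passed the filter on low counts and were tested. SK-N-SH is an established human neuroblastoma line, cultured here in EMEM with fetal bovine serum. Both groups were transfected with Lipofectamine 3000, a lipid reagent that carries plasmid DNA into cells, and RNA was taken on day 3. The plasmid in both groups was pCMV6-AC; in dEx1 it held the MAML3 coding sequence lacking exon 1, with a V5 tag at the end of the protein, and in the control group it held no insert. A further 3 SK-N-SH libraries carried full-length MAML3 with the same tag (FL); they shared the estimate of spread and are given beside dEx1 where the 2 constructs were compared. Each group thus received plasmid and lipid, no untransfected cells are analysed here, and the labels do not give the share of cells that took up the plasmid. The labels call the replicates biological; a library is named by its group and replicate number, such as vector 3.

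Mastermind-like proteins are coactivators: after a Notch receptor is cut, its intracellular part binds the DNA-binding protein RBPJ, and a Mastermind-like protein joins that complex through its amino-terminal end. Interferons are secreted proteins made after pattern receptors sense foreign nucleic acid; they act through receptors and JAK-STAT signalling to raise a wide set of antiviral genes and the genes of antigen presentation. In neuroblastoma, cells of an adrenergic and of a mesenchymal state are told apart by their transcription factors.

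MAML3 lies on hg19 chromosome 4, 140637907 to 141075338, minus strand. In the GENCODE annotation lifted to hg19, exon 1 spans 141074014 to 141075338 and holds 468 of 3414 coding bases, 13.7%, in 5 coding exons. MAML3 stood at 16.3, 29.2 and 18.2 CPM in vector and 9017, 13448 and 4787 CPM in dEx1. Each dEx1 library was thus far above each vector library (log2 fold change 8.74, SE 0.55, adjusted p = 0.0013), as its label says, and dEx1 3 had the least. The FL libraries held 11892, 15250.2 and 7635 CPM, which overlapped dEx1 (dEx1 against FL log2 fold change -0.35, SE 0.39, adjusted p = 0.577). The deposited counts are per gene, so they do not show which exons the reads came from. CPM here is the estimated count per 1000000 counts of the scaled library, a fold change is the log2 value of the fit, with its SE in words or after ±, and each adjusted p for a gene comes from edgeR's quasi-likelihood F test with Benjamini-Hochberg adjustment over all 14674 genes.

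Most of the genes that passed the test were lower in dEx1. The test called 534 genes lower, 3.64% of all tested, and 122 higher, 0.831%, at an adjusted p under 0.05. The median change of a lower call was -1.12 on the log2 scale and that of a higher call 0.72, while the median of all genes was 0.01. In all 534 lower calls the 3 dEx1 libraries lay below the 3 vector libraries, and in all 122 higher calls they lay above; the same separation held for 14.1% and 12.6% of all genes tested. These are bulk RNA measurements, in which fewer cells expressing a gene and less RNA per cell cannot be told apart.

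**Figure D1:**
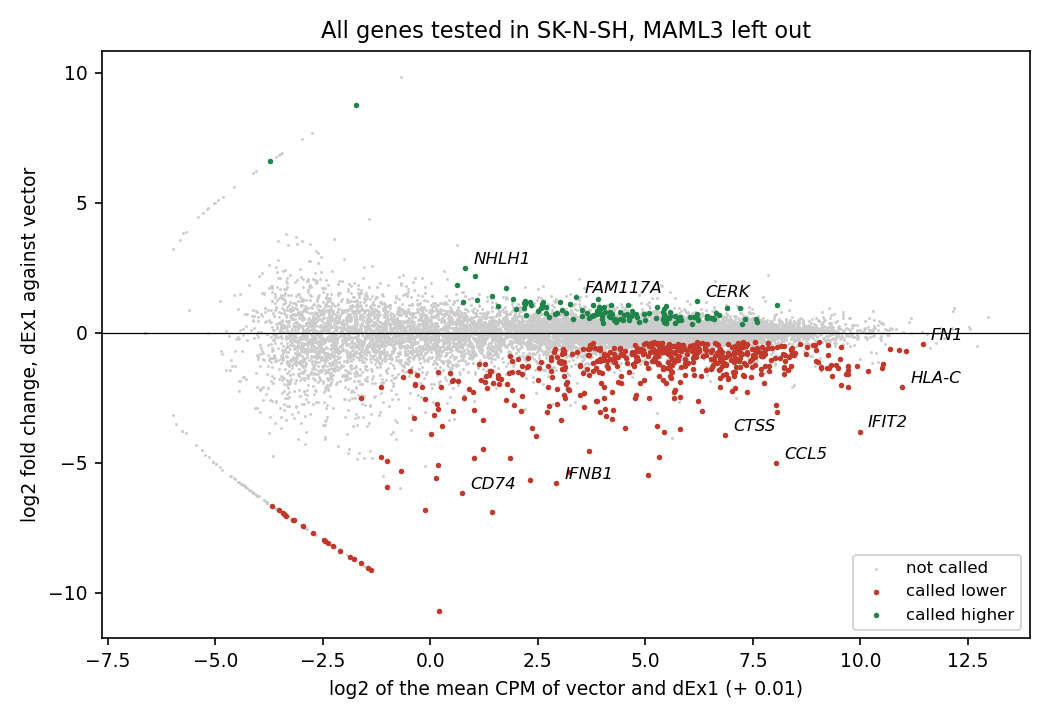
Log2 fold change of dEx1 against vector (vertical axis) against the log2 mean CPM of both groups plus 0.01 (horizontal axis), 1 point per gene tested, MAML3 left out. Red points are the 534 genes called lower and green points those called higher (121 without MAML3); the red points reach further from 0 than the green ones, and the curved lines of points at the left are genes at 0 in every library of a group, whose fitted values depend on the prior count.

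The libraries held from 84575626 to 97874108 estimated counts in the 2 groups compared. Vector 3 stood apart from the other vector libraries. On the first principal component of log2 CPM over the genes tested, 40.7% of the variance, vector 1 and 2 lay at 28.3 and 28.54 and vector 3 at -40.01, next to dEx1 2 at -43.45; dEx1 1 and 3 lay at -55.94 and -84.75. The second component, 19.2%, placed replicate 3 of each group highest within its group. Replicate 3 was the highest library of all 3 groups for 25 of 29 cell cycle genes, against 19% of all genes tested, and the lowest for 13 of 17 ATF4 and endoplasmic reticulum stress genes and 11 of 18 adrenergic factors, against 16.3%. Vector 3 was the lowest of the vector libraries in 409 of the 534 lower calls, 76.6%, against 42.2% of all genes tested. It lay on the dEx1 side of its group in the higher calls as well. There it was the highest vector library in 89 of 122, against 42.9% of all genes tested.

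**Figure D2:**
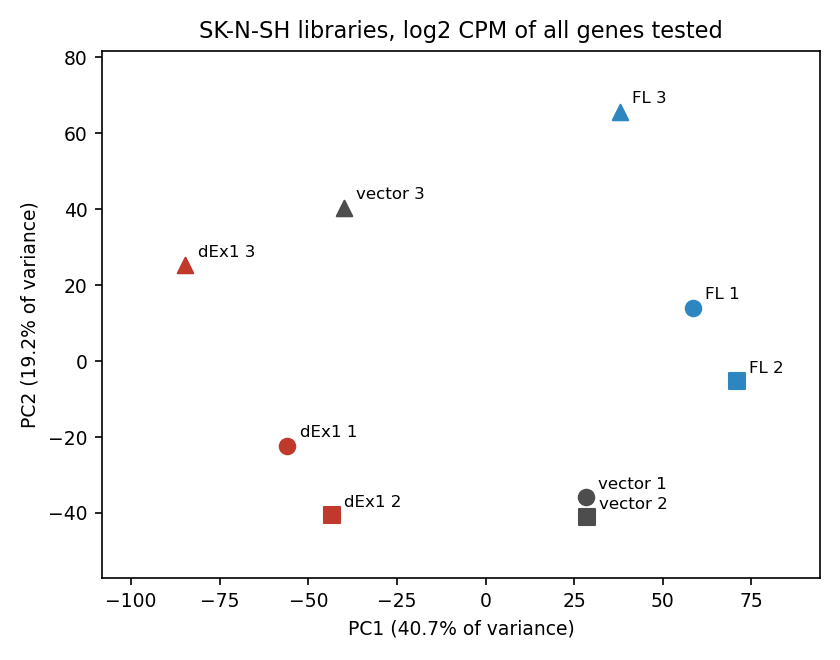
The first 2 principal components of log2 CPM over the genes tested in the 9 SK-N-SH libraries, as scores without unit; colour marks the group and shape the replicate. Vector 3 lies at -40.01 on PC1, between the other vector libraries and the dEx1 libraries.

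A term for replicate 3 in the model raised the counts to 1443 genes lower, 9.83% of those tested, and 1271 higher, 8.66%, and all 534 lower and 122 higher calls were among them. Without vector 3 the counts were 1342 lower and 1216 higher of 15043 genes tested. Without replicate 3 of all groups they were 1760 lower and 1507 higher of 14808. In the other direction, the total of 656 calls fell to 80 without dEx1 1, 108 without vector 1, 154 without vector 2, 268 without dEx1 3, 350 without dEx1 2, 369 without FL 1 and 427 without FL 2. With only the 6 libraries compared it was 300 (259 lower and 41 higher). The share of lower calls thus ran from 52.5% without vector 3 to 96.2% without dEx1 1. The same held for single genes: of the 111 genes called and named below, MAML3 included, 83 lost their call without dEx1 1, 74 without vector 1 and 63 without vector 2, and all 111 kept it without vector 3 and with the replicate 3 term. The 18 that were called under every alternative that tested them were MAML3, ISG20, GBP2, NMI, CD74, TNFSF10, TNFRSF14, CASP4, MLKL, PMAIP1, ATF3, DUSP5, HES4, SEMA3A, HK2, CD68, CTSS and FAM117A. None of the 111 changed direction under any of the 20 alternatives. Their vector and dEx1 libraries did not overlap, so refits of the same libraries could hardly reverse a sign. In what follows, the parentheses after a gene list's count of calls hold its lowest and highest value over the 9 fits that each leave out 1 library. Each list's count stands beside the shares over all genes tested. These were 3.64% lower and 0.831% higher, and 9.83% and 8.66% with the replicate 3 term. A list count without vector 3 is to be set beside the 1342 lower and 1216 higher of 15043 genes in that fit.

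The interferon genes themselves were close to 0 in dEx1. IFNB1, the type I interferon that non-immune cells make, stood at 21.4, 16.7 and 6.68 CPM in vector and 0.0582, 0.675 and 0.0569 CPM in dEx1 (log2 fold change -5.79, SE 0.99, adjusted p = 0.0174). IFNL1, a type III interferon, stood at 14.4, 11.2 and 3.73 CPM in vector and 0, 0.467 and 0.102 CPM in dEx1 (log2 fold change -5.65, SE 1.1, adjusted p = 0.0271). Vector 3 was the lowest vector library for both, and still lay above every dEx1 library. In both genes dEx1 1 and dEx1 3 lay under 0.167 CPM, the mean level in dEx1 of 15 deposited units, taken here as 3 fragments. The fold sizes of both genes, against vector and against FL, thus rest on few counts in dEx1. IFNL2, nearly identical to its neighbouring type III gene so that reads can be shared between them, had 1.64, 1.02 and 0.921 CPM in vector and 0, 0.0519 and 0 CPM in dEx1 (adjusted p = 0.0611). Of the 20 interferon genes in the table only these 3 had enough counts to be tested; 2 were called (0 without vector 1, vector 2, dEx1 1 or dEx1 3 and 3 without vector 3 or FL 3), and all 3 with the replicate 3 term. In FL, IFNB1 was at 1.71, 3.54 and 5.46 CPM and IFNL1 at 1.61, 2.25 and 5.2 CPM, and dEx1 was lower than FL in both (log2 fold change -3.73, SE 0.92, adjusted p = 0.0213 for IFNB1, and log2 fold change -3.96, SE 1.04, adjusted p = 0.0267 for IFNL1). Over all genes tested, 11.5% were called lower in dEx1 than in FL and 10.5% higher.

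None of the 6 interferon receptor genes was called. IFNAR1, a chain of the type I receptor, stood at 59.9, 59.9 and 69.7 CPM in vector and 72.7, 67.7 and 58.5 CPM in dEx1, and IFNAR2, the other chain, at 27.5, 26.3 and 25.1 CPM in vector and 25.8, 24.3 and 25.5 CPM in dEx1. IFNLR1, the specific chain of the type III receptor, had 3.31, 3.9 and 4.76 CPM in vector and 2.83, 4.07 and 1.93 CPM in dEx1, and its partner IL10RB 22.8, 27.1 and 26.7 CPM and 29.8, 30.8 and 30.7 CPM. Vector and dEx1 overlapped for IFNAR1, IFNAR2 and IFNLR1, while IL10RB was higher in each dEx1 library without passing the test (log2 fold change 0.25, SE 0.10, adjusted p = 0.182). The changes of these 4 and of the interferon gamma receptor chains IFNGR1 and IFNGR2 lay between -0.44 and 0.25.

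The sensors of nucleic acid and their adaptors were mostly lower: 9 of 14 tested were called lower and none higher (2 without vector 1 or dEx1 1 and 10 without vector 3), with a median log2 fold change of -1.05. TLR3, the endosomal receptor for double-stranded RNA, fell from 70.5, 64.8 and 64.1 CPM in vector to 20.2, 23.7 and 12.3 CPM in dEx1 (log2 fold change -1.83, SE 0.24, adjusted p = 0.00883). Its adaptor TICAM1 fell from 88.9, 90.3 and 84.6 CPM to 54.3, 60.1 and 47.3 CPM (log2 fold change -0.71, SE 0.11, adjusted p = 0.013). The cytosolic RNA sensor IFIH1 (MDA5) fell from 342, 305 and 285 CPM to 119.6, 138 and 55.9 CPM (log2 fold change -1.57, SE 0.28, adjusted p = 0.0204). In each of these 3 genes the vector libraries lay close together, vector 3 among them, and dEx1 3 was the lowest library.

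The other RNA sensors of this family changed by less or varied more: DDX58 (RIG-I) had a log2 fold change of -1.09 ± 0.25 with adjusted p = 0.0449 and DHX58 (LGP2) one of -1.89 ± 0.41 with adjusted p = 0.0403. IKBKE, a kinase that acts on interferon regulatory factors, fell from 72.8, 68.3 and 54.6 CPM to 33.7, 35.9 and 28.6 CPM (log2 fold change -1.0, SE 0.13, adjusted p = 0.00883). The DNA sensor AIM2 fell from 52.4, 54.8 and 21.5 CPM to 2.77, 6.08 and 1.22 CPM (log2 fold change -3.67, SE 0.57, adjusted p = 0.0141), and the DNA-binding sensor IFI16 from 1048, 994 and 914 CPM to 582, 565 and 319.9 CPM (log2 fold change -1.01, SE 0.20, adjusted p = 0.0293). ZBP1, a sensor of Z-form nucleic acid, was at 2.84, 2.04 and 1.5 CPM in vector and 0, 0.125 and 0 CPM in dEx1. In AIM2 vector 3 lay far below vector 1 and 2, yet above each dEx1 library. The mitochondrial adaptor MAVS was not called (101, 61.6 and 79.6 CPM in vector and 84, 80.0 and 149 CPM in dEx1, adjusted p = 0.45), nor were the RNA-activated kinase EIF2AK2 (log2 fold change -0.45, SE 0.21, adjusted p = 0.24) and the ubiquitin ligase TRIM25 (log2 fold change -0.50, SE 0.15, adjusted p = 0.102).

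Of the 7 interferon regulatory factors tested, IRF1 and IRF2 were called lower (0 without vector 1 or dEx1 1 and 4 without vector 3), and 4 were called with the replicate 3 term. IRF1, a transcriptional activator, fell from 189, 192 and 181 CPM to 61.7, 74.7 and 30.7 CPM (log2 fold change -1.75, SE 0.27, adjusted p = 0.014). IRF2, which binds the same DNA element and is known to counter IRF1 at many genes, fell as well, from 68, 65.7 and 79.7 CPM to 21.4, 25.5 and 30.6 CPM (log2 fold change -1.46, SE 0.25, adjusted p = 0.0185). IRF3, the factor that is activated by phosphorylation after sensing and is not itself an interferon-induced gene, overlapped between the groups, with 52.9, 51.4 and 56.5 CPM in vector and 56.2, 55.3 and 51.7 CPM in dEx1 (log2 fold change 0.02, SE 0.08, adjusted p = 0.91). IRF7, which amplifies interferon production, was at 238, 222 and 202 CPM and 122, 149.9 and 63.9 CPM (log2 fold change -0.98, SE 0.26, adjusted p = 0.0689), and IRF9, a DNA-binding factor of the interferon response, at 286, 275 and 274 CPM and 212, 226 and 172 CPM (log2 fold change -0.45, SE 0.11, adjusted p = 0.0519). Both lay below vector in each dEx1 library but missed the threshold, which they passed with the replicate 3 term (adjusted p = 0.0181 and 0.0193).

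Of 16 JAK-STAT genes, JAK2 and STAT5A were called lower (0 without vector 1 or dEx1 1 and 5 without vector 3), with 6 called with the replicate 3 term. The kinase JAK2 fell from 29.7, 27 and 20.3 CPM to 13.4, 11.9 and 12.8 CPM (log2 fold change -1.02, SE 0.15, adjusted p = 0.0121). STAT5A, a transcription factor of cytokine receptors, fell from 22.3, 20.9 and 19.3 CPM to 10.3, 13.1 and 12.4 CPM (log2 fold change -0.80, SE 0.14, adjusted p = 0.0183). The kinase JAK1, which serves the interferon receptors, overlapped between the groups (166, 173 and 174 CPM in vector and 171, 167 and 166 CPM in dEx1). The feedback inhibitors USP18 and SOCS1 had log2 fold changes of -1.07 ± 0.27 with adjusted p = 0.0595 and -0.77 ± 0.20 with adjusted p = 0.0701. USP18 and SOCS1 did not overlap between the groups, and each passed the test with the replicate 3 term (adjusted p = 0.0295 and 0.0234).

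**Figure D3:**
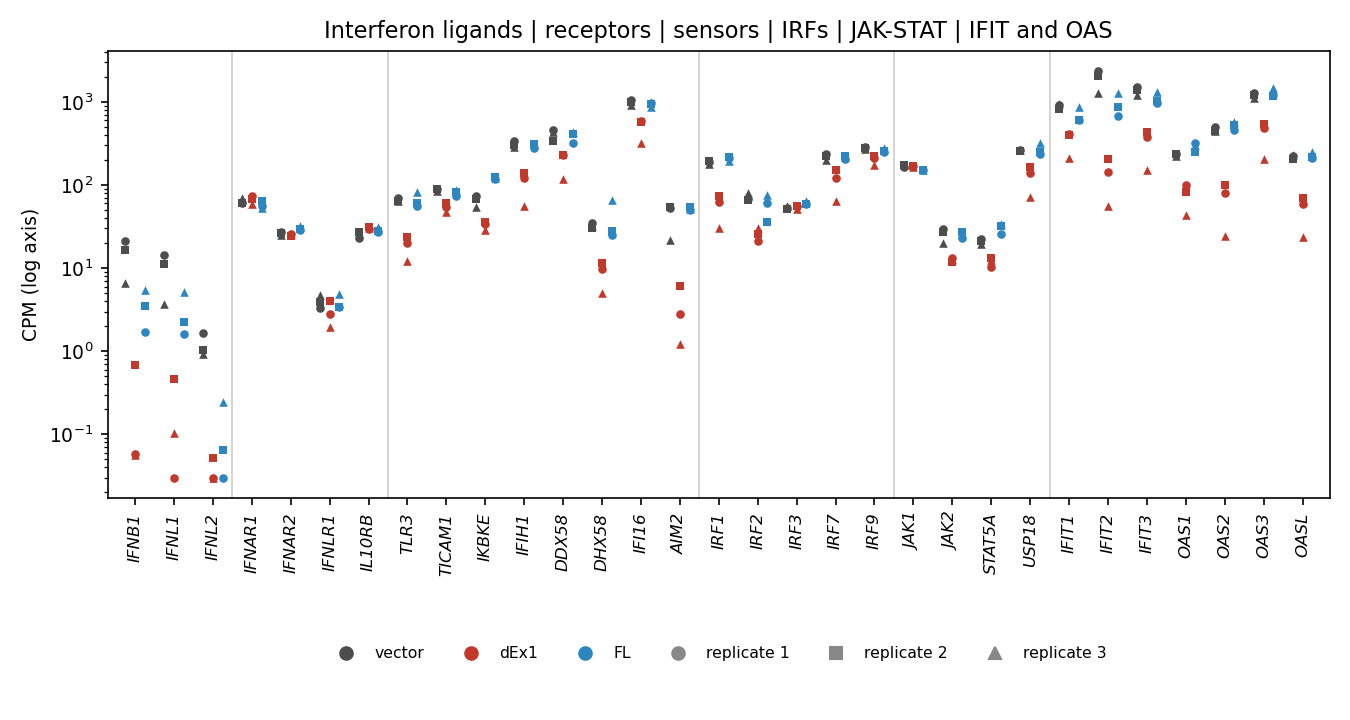
CPM of each SK-N-SH library (log axis) for interferon ligands, receptors, sensors and adaptors, interferon regulatory factors, JAK-STAT genes and the IFIT and OAS effectors; colour marks the group, shape the replicate, and values under 0.03 CPM are drawn at 0.03. The dEx1 libraries lie below both other groups in IFNB1, TLR3, IRF1 and IFIT2, and overlap the vector libraries in IFNAR1, IRF3 and JAK1.

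The effectors of the interferon response were lower in dEx1. Of 10 genes of the IFIT and OAS families tested, 7 were called lower and none higher (1 without vector 1 or dEx1 1 and 8 without dEx1 3), with a median log2 fold change of -1.86. The IFIT proteins bind viral RNA: IFIT1 fell from 904, 820.4 and 933 CPM to 409.6, 404 and 214 CPM (log2 fold change -1.37, SE 0.25, adjusted p = 0.0214). IFIT3 fell from 1526, 1373 and 1198 CPM to 381, 434 and 151 CPM (log2 fold change -2.09, SE 0.34, adjusted p = 0.0161). The fall of IFIT2 was larger (log2 fold change -3.8, SE 0.50, adjusted p = 0.00883), and IFIT5 was not called (log2 fold change -0.73, SE 0.20, adjusted p = 0.0795). In IFIT1 vector 3 was the highest of the vector libraries and dEx1 3 the lowest of all.

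The OAS enzymes make the second messenger that activates RNase L. OAS1 fell from 238, 235 and 225 CPM to 101, 81.3 and 43.3 CPM (log2 fold change -1.63, SE 0.26, adjusted p = 0.0153), and OAS3 from 1294, 1214 and 1126 CPM to 484, 539 and 203 CPM (log2 fold change -1.57, SE 0.31, adjusted p = 0.0282). OAS2 and OASL had log2 fold changes of -2.76 ± 0.43 with adjusted p = 0.0141 and -2.12 ± 0.33 with adjusted p = 0.0141. In all 4 genes dEx1 3 was the lowest library. It was the lowest dEx1 library for 8 of the 10 IFIT and OAS genes and 36 of the 38 other interferon-stimulated genes, against 36.6% of all genes tested.

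Among 38 other interferon-stimulated genes, 28 were called lower and none higher (7 without dEx1 1 and 33 without vector 3); all 38 had a negative log2 fold change, with a median of -1.31, and all 38 were called with the replicate 3 term. ISG20, an exonuclease that degrades RNA, fell from 89, 79.2 and 46.3 CPM to 6.72, 7.61 and 3.49 CPM (log2 fold change -3.59, SE 0.38, adjusted p = 0.00475). The guanylate-binding protein gene GBP2 fell from 63.7, 56.2 and 61.2 CPM to 24, 26.5 and 22.3 CPM (log2 fold change -1.32, SE 0.12, adjusted p = 0.00282). Its relatives GBP1 and GBP5 had log2 fold changes of -1.59 ± 0.18 with adjusted p = 0.00611 and -3.69 ± 0.48 with adjusted p = 0.00883. In ISG20 the lowest vector library was still several times the highest dEx1 library. NMI, a partner of STAT proteins, fell from 33.4, 35.6 and 33.2 CPM to 9.23, 10.5 and 6.84 CPM (log2 fold change -1.94, SE 0.21, adjusted p = 0.0057), and TRIM22, an antiviral ubiquitin ligase, from 347, 351 and 331 CPM to 132, 140.4 and 99.2 CPM (log2 fold change -1.47, SE 0.16, adjusted p = 0.00609). ISG15, a ubiquitin-like protein named here after its values were seen, was at 797, 783 and 772 CPM and 362, 399.8 and 165 CPM (log2 fold change -1.34, SE 0.29, adjusted p = 0.0409). In GBP2, NMI, TRIM22 and ISG15 the vector libraries lay close together, while in ISG20 and GBP5 vector 3 was the lowest of them.

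The promoters of several of these genes carry the element through which interferon signals reach DNA, and those of genes described in this comparison are shown to let the element be seen. Promoter windows of 250 bases before the annotated start came from RefSeq (GRCh38.p14) and were searched on both strands for an ISRE-like motif, GAAANNGAAA, the interferon-stimulated response element bound by interferon regulatory factors, and for an NF-kB-like motif, GGGAANNNCC. Of 35116 windows in the table, 3.02% held the first motif and 6.02% the second. Of the 38 other interferon-stimulated genes, 31 were matched to a window and 20 of these held an ISRE-like match. Over all genes tested, 11399 were matched and 387 of these held one. The share differed between lists. An ISRE-like match was held by 4 of 6 matched IFIT and OAS genes and 6 of 11 of MHC class I. It was held by 4 of 13 TNF superfamily genes, 2 of 11 sensors and adaptors, 2 of 15 chemokines and 0 of 3 interferon regulatory factors. Only genes with a match of either motif are shown, so the lines below do not stand for all genes described. Each line gives the stretch that holds the matches with up to 15 bases on each side. Capitals mark the matches, on either strand, and a run of more than 10 capitals joins overlapping matches; each sequence is read 5′ to 3′ along the gene's sense strand.
IFNL1: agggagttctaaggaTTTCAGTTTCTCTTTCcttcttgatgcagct
IFIT1: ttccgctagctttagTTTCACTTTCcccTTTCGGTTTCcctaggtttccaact
IFIT3: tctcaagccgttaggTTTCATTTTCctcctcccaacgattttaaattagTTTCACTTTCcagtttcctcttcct
ISG15: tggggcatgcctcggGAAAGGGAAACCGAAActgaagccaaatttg
ISG20: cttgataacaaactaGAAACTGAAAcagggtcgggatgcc
GBP1: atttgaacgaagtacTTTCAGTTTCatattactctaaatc
B2M: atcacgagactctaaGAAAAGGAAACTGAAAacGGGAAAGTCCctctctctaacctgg
TNFSF10: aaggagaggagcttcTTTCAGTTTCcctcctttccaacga
IFIH1: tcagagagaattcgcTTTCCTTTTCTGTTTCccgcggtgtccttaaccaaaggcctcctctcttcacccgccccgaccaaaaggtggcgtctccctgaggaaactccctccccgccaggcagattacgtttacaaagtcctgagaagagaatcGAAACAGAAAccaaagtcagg
IFNB1: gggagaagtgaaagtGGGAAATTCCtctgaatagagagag
CXCL10: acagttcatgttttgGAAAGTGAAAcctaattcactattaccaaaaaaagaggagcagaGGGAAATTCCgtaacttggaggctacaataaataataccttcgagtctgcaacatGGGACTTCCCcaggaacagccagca
CXCL11: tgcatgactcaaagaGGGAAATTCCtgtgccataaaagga

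Their GRCh38.p14 positions are chr19:39296178-39296223, chr10:89392492-89392544, chr10:89327826-89327899, chr1:1013369-1013414, chr15:88638932-88638971 and chr15:44711358-44711415 on the plus strand, and chr1:89065311-89065350, chr3:172523593-172523632, chr2:162318685-162318858, chr9:21077984-21078023, chr4:76023595-76023733 and chr4:76036122-76036161 on the minus strand. The match begins 69 bases before the start in ISG20, 127 in GBP1 and 187 in TNFSF10. The NF-kB-like match begins 66 bases before the start in IFNB1 and 76 in CXCL11. IFIT1 and IFIT3 each hold 2 ISRE-like matches on the strand opposite to the gene. CXCL10 holds an ISRE-like match and 2 NF-kB-like matches, while IFNB1 and CXCL11 hold only an NF-kB-like match in these 250 bases. A match describes letters and not a site in use, and no binding was measured here. Of the 534 genes called lower, 74% had a window, beside 77.7% of all genes tested. Among those 395 genes, 57 held an ISRE-like match and 51 an NF-kB-like match. Over the 11399 matched genes of all tested, the counts were 387 and 1047. No set test was run.

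Genes of antigen presentation by MHC class I fell together: 12 of 15 were called lower and none higher (0 without dEx1 1 and 12 without vector 3 or FL 3), with a median log2 fold change of -1.31. The class I heavy chain gene HLA-C, among the most abundant of them, fell from 3656, 4082 and 1933 CPM to 849.9, 943 and 486 CPM (log2 fold change -2.09, SE 0.31, adjusted p = 0.0126). B2M, the shared light chain, fell from 2289, 2437 and 1496 CPM to 922, 899 and 582 CPM (log2 fold change -1.37, SE 0.22, adjusted p = 0.0145). In both genes vector 3 lay between the other vector libraries and dEx1, and the FL libraries were above vector, with 5442, 5534 and 5461 CPM for HLA-C and 3112, 3197 and 2974 CPM for B2M.

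The nonclassical class I genes HLA-E and HLA-F had log2 fold changes of -1.34 ± 0.19 with adjusted p = 0.0101 and -3.8 ± 0.53 with adjusted p = 0.0105. HLA-F went from 103, 97.2 and 40.4 CPM in vector to 5.61, 9.23 and 2.45 CPM in dEx1. PSME2, a subunit of the proteasome activator, fell from 251, 267 and 216 CPM to 147, 136 and 99.4 CPM (log2 fold change -0.94, SE 0.15, adjusted p = 0.0157). HLA genes are related to each other in sequence, and how the authors' counting split any shared reads among them is not stated. The 3 members that were not called, named after their values were seen, were the chaperones of the loading complex: TAPBP was at 486, 499.9 and 501 CPM and 351, 523 and 259.5 CPM, with overlapping groups, and CALR and PDIA3 had log2 fold changes of 0.16 ± 0.11 with adjusted p = 0.422 and 0.12 ± 0.08 with adjusted p = 0.418. CALR and PDIA3 also serve protein folding in general.

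In the MHC class II pathway, 5 of 9 genes had enough counts and CIITA and CD74 were called lower (1 without vector 1, vector 2 or dEx1 1 and 3 without dEx1 2). CIITA, the master activator of class II genes, was at 1.07, 0.853 and 0.219 CPM in vector and at 0 in each dEx1 library. CD74, the invariant chain, had 5.17, 3.49 and 1.15 CPM in vector, 0.0815, 0 and 0.0569 CPM in dEx1 and 19.8, 22.5 and 28.5 CPM in FL. No fold is given for either, since the dEx1 libraries lie at or under 15 deposited units per library, the level taken here as 3 fragments. The list's median log2 fold change was -3.47 as fitted and -2.1 with genes at 0 set to that floor, over few counts.

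Chemokines, secreted proteins that draw immune cells, were lower too: 8 of 20 were called lower and none higher (0 without dEx1 1 and 10 without vector 3), and 13 with the replicate 3 term. The median was -2.33 as fitted, and -1.84 with the 4 genes at 0 in a group set to the floor. CXCL10, which acts on the receptor CXCR3 of T cells, fell from 106, 94.5 and 29.4 CPM to 2.32, 5.31 and 0.671 CPM (log2 fold change -4.79, SE 0.76, adjusted p = 0.0145). CXCL11, which shares that receptor and lies next to it (hg19 chromosome 4, 76954835 to 76962568, minus strand), had a log2 fold change of -5.46 ± 0.74 with adjusted p = 0.00957, and CXCL9, the third of the group, was at 0.959, 0.603 and 0.702 CPM in vector and at 0 in dEx1. In CXCL10 and CXCL9 no dEx1 library reached the lowest vector library. CXCL16, made as a membrane protein, fell from 36.4, 36.6 and 26.1 CPM to 10.5, 11.6 and 9.03 CPM (log2 fold change -1.67, SE 0.22, adjusted p = 0.00887). CCL3 fell from 10.7, 8.39 and 1.64 CPM to 0.0931, 0.447 and 0.193 CPM (log2 fold change -4.79, SE 0.80, adjusted p = 0.0163). In CCL3, dEx1 1 lay under the floor of 0.167 CPM and dEx1 3 just above it, so the size of its fold rests on few counts. CCL5 had a log2 fold change of -5.02 ± 0.69 with adjusted p = 0.0101. Vector 3 was the lowest vector library in each of CXCL10, CXCL11, CXCL16, CCL3 and CCL5.

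The inflammatory chemokine CXCL8 and the cytokine IL6, named after their values were seen, stood apart by their spread. CXCL8 was at 305, 329 and 73.3 CPM in vector, 47.4, 57.3 and 20.3 CPM in dEx1 and 3823, 4828 and 1225 CPM in FL. IL6 was at 105, 77.7 and 25.2 CPM, 6.75, 9.89 and 8.06 CPM and 1345, 2250.1 and 259.7 CPM in the same order. Replicate 3 was the lowest of its group in vector and FL for both genes. Against vector, adjusted p was 0.0759 for CXCL8 and 0.0574 for IL6, and with the replicate 3 term 0.00105 and 0.0163; against FL both were lower in dEx1 (log2 fold change -6.3, adjusted p = 0.00175, and -7.28, adjusted p = 0.00161).

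Of 19 interleukin and colony-stimulating factor genes, 4 were called lower (0 without dEx1 1 and 9 without vector 3) and 11 with the replicate 3 term. IL7 and IL15, cytokines that keep lymphocytes alive, fell from 12.8, 13.6 and 9.87 CPM to 4.9, 5.66 and 3.41 CPM (log2 fold change -1.38, SE 0.21, adjusted p = 0.0127) and from 11, 9.53 and 7.75 CPM to 4.09, 4.49 and 2.96 CPM (log2 fold change -1.29, SE 0.22, adjusted p = 0.0171). EBI3 and IL12A encode the subunits that together form interleukin-35. EBI3 fell from 15.6, 15.2 and 6.78 CPM to 2.26, 3.18 and 2.95 CPM (log2 fold change -2.16, SE 0.30, adjusted p = 0.010), with 93.1, 103 and 92.9 CPM in FL. IL12A had a log2 fold change of -1.67 ± 0.33 with adjusted p = 0.0292.

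In the TNF superfamily, 6 of 17 genes were called lower (2 without dEx1 1 and 7 without vector 3 or FL 3). The death ligand TNFSF10 (TRAIL) fell furthest of those with a fold, from 23.9, 16.4 and 14.5 CPM to 0.303, 0.623 and 0.398 CPM (log2 fold change -5.36, SE 0.41, adjusted p = 0.00205). TNFRSF1B, a TNF receptor, fell from 3.0, 4.38 and 2.42 CPM to 0.768, 0.748 and 0.523 CPM (log2 fold change -2.26, SE 0.34, adjusted p = 0.013), and the ligand TNFSF15 from 18.4, 16.6 and 12.5 CPM to 6.23, 7.54 and 5.8 CPM (log2 fold change -1.28, SE 0.24, adjusted p = 0.0222). Vector 3 was the lowest vector library in TNFSF10, TNFRSF1B and TNFSF15, above each dEx1 library. The B cell factor TNFSF13B fell from 2.56, 2.52 and 0.899 CPM to 0.384, 0.322 and 0.0796 CPM (log2 fold change -2.92, SE 0.62, adjusted p = 0.0366). Its dEx1 3 value lay under the floor of 0.167 CPM, so the size of this fold rests on few counts. TNFRSF14 was at 0.479, 0.432 and 0.439 CPM in vector and at 0 in dEx1. Of the 6, the receptor TNFRSF12A changed least, from 581, 589 and 607 CPM to 458, 450.1 and 469.9 CPM (log2 fold change -0.37, SE 0.08, adjusted p = 0.0365), and its call was lost without dEx1 1 or vector 1 among others.

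Genes of programmed cell death were lower: 10 of 17 were called lower and none higher (4 without vector 1, vector 2 or dEx1 1 and 12 without vector 3), with a median log2 fold change of -0.60. The inflammatory caspase CASP4, which senses bacterial lipopolysaccharide, fell from 77.8, 71.9 and 67 CPM to 27.8, 26.7 and 22.1 CPM (log2 fold change -1.5, SE 0.12, adjusted p = 0.00205). CASP1, the caspase of the inflammasome, fell from 25.8, 20.6 and 16 CPM to 3.48, 3.18 and 2.01 CPM (log2 fold change -2.85, SE 0.26, adjusted p = 0.00301). MLKL, the executor of necroptosis, fell from 63.9, 58.6 and 58.6 CPM to 18.2, 23.1 and 16.4 CPM (log2 fold change -1.65, SE 0.14, adjusted p = 0.00205). For these 3 genes the lowest vector library lay more than 2-fold above the highest dEx1 library.

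The pro-apoptotic BCL2 relatives PMAIP1 (NOXA) and BBC3 (PUMA) fell from 337, 308 and 255 CPM to 121, 127 and 94.4 CPM (log2 fold change -1.39, SE 0.15, adjusted p = 0.00475) and from 25.3, 27.3 and 17.2 CPM to 10.3, 12.2 and 10.7 CPM (log2 fold change -1.07, SE 0.18, adjusted p = 0.0163). The anti-apoptotic MCL1, to which NOXA binds, fell as well, from 802, 890.0 and 666 CPM to 430.4, 411 and 471 CPM (log2 fold change -0.85, SE 0.15, adjusted p = 0.0183). PMAIP1 and BBC3 were also the 2 of 17 p53 targets called lower (1 without vector 1, vector 2, dEx1 1 or dEx1 3 and 7 without vector 3), and 7 were called lower and 1 higher with the replicate 3 term. For BBC3 the difference from FL did not pass the test (12.8, 11.5 and 13.8 CPM in FL, log2 fold change -0.20, adjusted p = 0.464), whereas PMAIP1 was lower in dEx1 than in FL (log2 fold change -0.99, adjusted p = 0.00282).

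NF-kB subunits and feedback inhibitors all had a negative log2 fold change, 18 of 18 with a median of -0.59, and 6 were called (0 without vector 1, vector 2 or dEx1 1 and 11 without vector 3). TNIP1, an inhibitor that works with TNFAIP3, fell from 262, 251 and 187 CPM to 152, 149 and 139 CPM (log2 fold change -0.67, SE 0.13, adjusted p = 0.0238). The adaptor TRAF1 fell from 87.6, 78.9 and 43.6 CPM to 16.7, 26.6 and 12.2 CPM (log2 fold change -1.92, SE 0.44, adjusted p = 0.0456), and the ubiquitin ligase BIRC2 (cIAP1) from 258, 251 and 119.6 CPM to 82.2, 70.7 and 99.7 CPM (log2 fold change -1.31, SE 0.30, adjusted p = 0.0458). The log2 fold changes of the subunit NFKB2, the inhibitor NFKBIA and the deubiquitinase TNFAIP3 were -0.75 ± 0.11 with adjusted p = 0.013, -0.81 ± 0.13 with adjusted p = 0.0151 and -2.98 ± 0.56 with adjusted p = 0.0229. In BIRC2 vector 3 lay far below the other vector libraries and just above dEx1 3.

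Of 22 AP-1 and immediate early factors, 6 were called lower (1 without dEx1 1 and 8 without FL 3) and none higher. JUN fell from 306, 281 and 302 CPM to 193, 191 and 210.1 CPM (log2 fold change -0.58, SE 0.09, adjusted p = 0.0133) and EGR1 from 87.6, 73.6 and 104 CPM to 32.6, 52.2 and 34.6 CPM (log2 fold change -1.15, SE 0.20, adjusted p = 0.0201). JUN lay close together within each group, and EGR1 varied more in both. KLF4 fell from 46.5, 40.6 and 15.2 CPM to 4.35, 4.95 and 1.06 CPM (log2 fold change -3.3, SE 0.59, adjusted p = 0.0201), with vector 3 between the other vector libraries and dEx1. KLF4 was at 8.86, 9.48 and 11.2 CPM in FL, and dEx1 against FL did not pass the test (adjusted p = 0.0835). ATF3, JUNB and FOSL1 had log2 fold changes of -2.45 ± 0.32 with adjusted p = 0.00884, -1.24 ± 0.16 with adjusted p = 0.00883 and -0.85 ± 0.18 with adjusted p = 0.0388. The phosphatases of ERK, whose genes are induced by it, included DUSP5 (log2 fold change -0.90, SE 0.11, adjusted p = 0.00721) and DUSP6, which fell from 88.4, 91.1 and 89.4 CPM to 38.7, 60.1 and 57.8 CPM (log2 fold change -0.78, SE 0.15, adjusted p = 0.0272); these were the 2 called of 16 DUSP and Sprouty genes (1 without vector 1, vector 2, dEx1 3 or FL 1 and 2 in each other fit).

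Since Mastermind-like proteins are known from Notch signalling, its genes were examined. Of 19 ligands, receptors and coactivators, which include MAML3's relatives, RBPJ and DLL1 were called lower (0 without vector 1, vector 2, dEx1 1 or dEx1 3 and 3 without vector 3). RBPJ, the DNA-binding protein of the pathway, fell from 73.7, 80.2 and 64 CPM to 47.5, 47.9 and 44.7 CPM (log2 fold change -0.64, SE 0.10, adjusted p = 0.0145). The ligand DLL1 fell from 5.25, 4.75 and 3.0 CPM to 1.12, 1.62 and 0.694 CPM (log2 fold change -1.92, SE 0.36, adjusted p = 0.0237). With the replicate 3 term 4 genes of this list were lower and 2 higher.

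Of 11 Notch target genes, HES4, HES7 and CCND1 were called lower (1 without vector 1, vector 2 or dEx1 1 and 3 without vector 3, FL 1, FL 2 or FL 3). The repressor HES4 fell from 32.9, 32.9 and 17.7 CPM to 4.46, 5.23 and 4.88 CPM (log2 fold change -2.52, SE 0.25, adjusted p = 0.00375). HES7, the repressor of the segmentation clock, fell from 2.99, 3.51 and 2.65 CPM to 0.757, 0.519 and 0.762 CPM (log2 fold change -2.17, SE 0.34, adjusted p = 0.0141), and the cyclin CCND1, a target of many pathways, from 2417, 2451 and 2061 CPM to 1446, 1463 and 1507 CPM (log2 fold change -0.65, SE 0.13, adjusted p = 0.0262). The textbook targets HES1 and HEY1, named after their values were seen, overlapped between the groups, with 12.5, 10.9 and 8.12 CPM against 8.71, 6.89 and 8.57 CPM for HES1 and 6.92, 8.82 and 6.44 CPM against 6.12, 6.95 and 7.01 CPM for HEY1. HEY1 was lower in FL, at 3.42, 3.02 and 1.45 CPM, and dEx1 was above FL (log2 fold change 1.35, adjusted p = 0.0138).

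Among the cell state markers of neuroblastoma, the calls against vector were of mesenchymal genes. None of 18 adrenergic factors was called (2 lower without vector 3 and 1 higher without FL 3, the only leave-outs with a call), and 1 was called lower and 1 higher with the replicate 3 term. Their summed level ran from 357 to 495 CPM in vector and from 385 to 472 CPM in dEx1. HAND2, a core adrenergic factor, was at 70.8, 73 and 58.7 CPM in vector, 122, 112 and 123 CPM in dEx1 and 57.7, 62.8 and 33.5 CPM in FL. It was higher in each dEx1 library, without passing the test against vector (log2 fold change 0.82, SE 0.21, adjusted p = 0.0649) and passing it against FL (log2 fold change 1.21, SE 0.21, adjusted p = 0.00533); with the replicate 3 term adjusted p against vector was 0.0154. GATA3, another core factor, was at 62.4, 63.8 and 54 CPM and 48, 46 and 36.6 CPM (log2 fold change -0.46, SE 0.12, adjusted p = 0.0709). Among 20 adrenergic genes in the table, MYCN and TH did not have enough counts to be tested.

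Of 23 mesenchymal genes 6 were called lower (0 without vector 1 or dEx1 1 and 9 without vector 3), IRF1, IRF2 and FOSL1 from the lists above among them, and 11 with the replicate 3 term. The list's median log2 fold change was -0.35. Its summed level, FN1 included, was 11478 to 13613 CPM in vector and 11217 to 12095 CPM in dEx1. The matrix protein gene FN1 fell from 3283, 3430.2 and 2917 CPM to 2432, 2426 and 2262 CPM (log2 fold change -0.44, SE 0.10, adjusted p = 0.0409). The repressor ZEB2 fell from 132, 145 and 107 CPM to 79.9, 68.8 and 72.6 CPM (log2 fold change -0.80, SE 0.19, adjusted p = 0.0496), and RUNX2 had a log2 fold change of -0.74 ± 0.15 with adjusted p = 0.035. FN1, ZEB2 and RUNX2 each lost the call in at least 8 of the 20 alternatives.

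Markers of other cells were checked in the same way. Epithelial and pancreatic endocrine markers summed to 143 to 246 CPM in vector and 197 to 297 CPM in dEx1, with 11 of 17 under 1 CPM on average in both groups and none called (3 higher without vector 3 and 2 with the replicate 3 term). Schwann and melanocytic markers summed to 59.6 to 105 CPM and 61.7 to 79.7 CPM, with none called (1 lower without vector 3). Blood and immune markers summed to 219 to 313 CPM in vector and 79.9 to 94.7 CPM in dEx1, but 8 of 13 were under 1 CPM and 5 were at 0 in all 6 libraries. Nearly all of that sum was CD68, a lysosomal protein that is not limited to macrophages, which fell from 307, 281 and 216 CPM to 75.8, 89.2 and 80.9 CPM (log2 fold change -1.71, SE 0.15, adjusted p = 0.00282) and was at 403, 439 and 522 CPM in FL.

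Among proteases, 6 of 27 were called lower (2 without vector 1, vector 2 or dEx1 1 and 10 without vector 3). The lysosomal cathepsin CTSS, which cuts the invariant chain, fell from 285, 288 and 73.8 CPM to 15.3, 15.6 and 11.9 CPM (log2 fold change -3.92, SE 0.48, adjusted p = 0.0074). The elastase MMP12 fell from 1.96, 2.48 and 1.66 CPM to 0.815, 0.623 and 0.648 CPM (log2 fold change -1.54, SE 0.22, adjusted p = 0.0117), and the collagenase MMP1 from 87, 97.5 and 37.8 CPM to 21.6, 25.9 and 18.2 CPM (log2 fold change -1.76, SE 0.33, adjusted p = 0.0236). In CTSS and MMP1 vector 3 lay far below the other vector libraries and above dEx1. Both metalloproteases were far higher in FL, at 28.1, 40.8 and 28 CPM and 432, 633 and 600.0 CPM, and the log2 fold changes of dEx1 against FL were -5.54 and -4.66 (adjusted p = 7.82e-05 and 0.000337). MMP13 was at 2.71, 3.41 and 0.461 CPM in vector and 0.105, 0.0831 and 0 CPM in dEx1. The urokinase receptor PLAUR and the cathepsin CTSL had log2 fold changes of -1.2 ± 0.19 with adjusted p = 0.014 and -0.68 ± 0.10 with adjusted p = 0.0141.

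The largest falls, ranked over all genes with at least 2 CPM in the higher group, also held genes outside these lists. IDO1, the enzyme that breaks down tryptophan, fell from 34.4, 28.4 and 11.7 CPM to 1.04, 1.74 and 0.375 CPM (log2 fold change -4.55, SE 0.61, adjusted p = 0.0092). No dEx1 library came near vector 3, the lowest of its group. APOL3 of the apolipoprotein L family fell from 12.5, 11.5 and 6.68 CPM to 0.815, 0.769 and 0.387 CPM (log2 fold change -3.96, SE 0.52, adjusted p = 0.00898), and ANO9, an anoctamin membrane protein, from 6.23, 5.94 and 1.17 CPM to 0.105, 0.426 and 0.0569 CPM (log2 fold change -4.48, SE 0.89, adjusted p = 0.0288). In ANO9, dEx1 1 and dEx1 3 lay under the floor of 0.167 CPM, so the size of its fold rests on few counts. CACNA1I, a T-type calcium channel, was at 7.23, 5.21 and 3.72 CPM in vector and 0, 0.125 and 0 CPM in dEx1, and was the 1 called of 12 calcium channel subunits (0 without dEx1 1 and 1 in each other fit). CR1L, a relative of complement receptor 1, was at 4.42, 5.69 and 1.5 CPM and 0.105, 0.301 and 0 CPM.

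In 3 further lists 1 member each was called lower, near the 3.64% called lower over all genes tested. The counts rose when replicate 3 was treated otherwise, as they did over all genes tested (9.83% lower and 8.66% higher with the replicate 3 term). Without vector 3, 1342 of all 15043 genes tested were lower and 1216 higher. SEMA3A, a secreted axon repellent, was the 1 called of 36 axon guidance genes, with 70.2, 74.2 and 59.2 CPM in vector and 29.3, 29.6 and 24.9 CPM in dEx1 (log2 fold change -1.28, SE 0.12, adjusted p = 0.00301). Without vector 3, 7 genes of that list were called lower and 7 higher, and with the replicate 3 term 7 lower and 3 higher. HK2, a hexokinase at the entry of glycolysis, was the 1 called of 23 hypoxia and glycolysis genes, with 160.4, 175 and 169 CPM and 99.1, 96.9 and 103 CPM (log2 fold change -0.75, SE 0.09, adjusted p = 0.00721). Without vector 3, 2 genes of that list were called lower and 2 higher, and with the replicate 3 term 3 lower. The microtubule protein gene MAP2 was the 1 called of 23 neuronal and synaptic genes (0 without vector 1, vector 2, dEx1 1, dEx1 2 or dEx1 3 and 2 without vector 3), with 45.1, 49.9 and 36.9 CPM and 29.4, 28.8 and 26.3 CPM (log2 fold change -0.64, SE 0.13, adjusted p = 0.0308). SEMA3A and HK2 were called under all 20 alternatives; MAP2 lost its call without vector 1 or dEx1 1, among others.

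In the fit without a replicate term, the rises were fewer and smaller than the falls. With the replicate 3 term the numbers were nearer to each other, at 1271 higher and 1443 lower. By the ranking rule, 110 genes rose and 470 fell, and the leading rise was NHLH1, a neuronal transcription factor of the basic helix-loop-helix family (hg19 chromosome 1, 160336861 to 160342636, plus strand). NHLH1 was at 0.789, 0.512 and 0.285 CPM in vector and 2.79, 4.53 and 1.57 CPM in dEx1, with 0.665, 0.864 and 0.425 CPM in FL (log2 fold change 2.48, SE 0.52, adjusted p = 0.0361). CAMK2A, a subunit of the calcium- and calmodulin-dependent kinase of synapses, rose from 0.489, 0.614 and 1.14 CPM to 3.05, 3.99 and 3.04 CPM (log2 fold change 2.17, SE 0.37, adjusted p = 0.0174). LRRN4CL rose from 0.529, 0.455 and 1.02 CPM to 2.1, 2.31 and 2.7 CPM (log2 fold change 1.82, SE 0.40, adjusted p = 0.0409). These 3 genes lay at 1.14 CPM or less in each vector library, and their FL libraries overlapped vector.

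Several of the rises encode regulators of small GTPases or proteins of the synapse and of vesicles. RAB3A, the small GTPase of synaptic vesicles, rose from 2.79, 2.52 and 3.9 CPM to 7.21, 6.08 and 7.54 CPM (log2 fold change 1.18, SE 0.21, adjusted p = 0.0193). RAPGEF4 (EPAC2), which activates Rap in response to cyclic AMP, rose from 0.979, 0.898 and 1.22 CPM to 2.14, 2.38 and 2.43 CPM (log2 fold change 1.17, SE 0.26, adjusted p = 0.0423), and RALGPS1, an activator of Ral, from 3.89, 3.5 and 4.0 CPM to 8.48, 8.75 and 7.42 CPM (log2 fold change 1.11, SE 0.25, adjusted p = 0.0434). In these 3 genes the values within a group lay close together. RASSF2, which binds Ras, rose from 3.31, 3.37 and 4.64 CPM to 9.84, 7.44 and 8.26 CPM (log2 fold change 1.17, SE 0.19, adjusted p = 0.0159), and LZTS3, a postsynaptic scaffold protein, from 4.29, 4.73 and 5.64 CPM to 11.1, 10.9 and 11.7 CPM (log2 fold change 1.2, SE 0.19, adjusted p = 0.0143). These groupings of the 15 were made after the values were seen, and no theme was tested.

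Of the other genes among the 15, CERK, ceramide kinase, was the most abundant and rose from 41.9, 40.4 and 50.6 CPM to 90.4, 77 and 143 CPM (log2 fold change 1.22, SE 0.22, adjusted p = 0.0208), with dEx1 3 the highest library. PNPLA3, a lipid droplet enzyme, rose from 2.01, 1.23 and 1.51 CPM to 2.75, 5.98 and 6.88 CPM (log2 fold change 1.72, SE 0.37, adjusted p = 0.0386). In PNPLA3 dEx1 1 lay well below the other dEx1 libraries and just above vector 1. CLCN4, a chloride and proton exchanger, rose from 2.58, 2.02 and 3.68 CPM to 5.66, 6.13 and 7.45 CPM (log2 fold change 1.21, SE 0.25, adjusted p = 0.0346). S100A2, a calcium-binding protein, rose from 8.05, 8.28 and 9.33 CPM to 23.7, 22.2 and 18.1 CPM (log2 fold change 1.32, SE 0.19, adjusted p = 0.0121). FAM117A, whose function is not well known, rose from 6.09, 5.57 and 5.93 CPM to 14, 17.5 and 13.6 CPM (log2 fold change 1.36, SE 0.16, adjusted p = 0.00712) and was the only rise besides MAML3 among the genes called under every alternative that tested them. FAM160A1 and the transcribed pseudogene FER1L4 had log2 fold changes of 1.28 ± 0.22 with adjusted p = 0.0183 and 1.42 ± 0.29 with adjusted p = 0.0314.

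**Figure D4:**
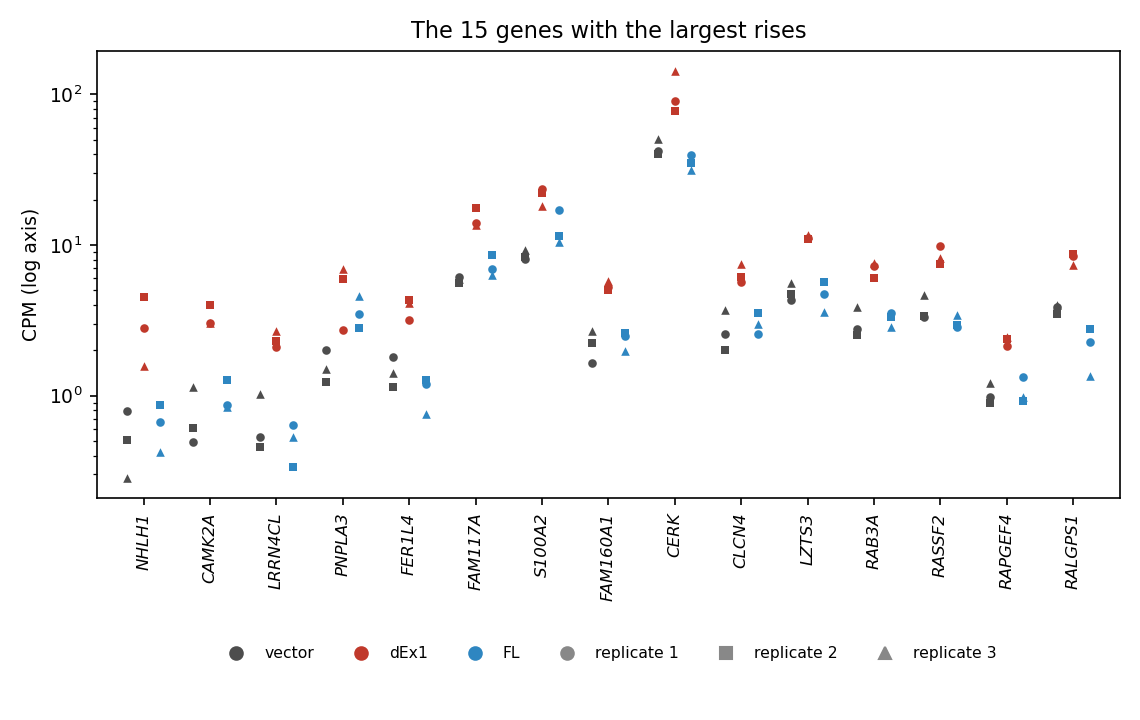
CPM of each SK-N-SH library (log axis) for the 15 genes with the largest rises in dEx1 by the ranking rule; colour marks the group and shape the replicate. In each gene the 3 dEx1 libraries lie above the 3 vector libraries, and CERK is the most abundant.

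The comparison with FL uses the same dEx1 libraries, so its values stand beside those above and are no second test. PNPLA3 had 3.47, 2.83 and 4.61 CPM in FL, and dEx1 against FL did not pass the test (log2 fold change 0.52, adjusted p = 0.348). RALGPS1 had 2.28, 2.77 and 1.34 CPM in FL and the log2 fold change of dEx1 against FL was 1.95 (adjusted p = 0.00184), larger than that against vector. S100A2 had 17, 11.5 and 10.5 CPM in FL and the log2 fold change was 0.71 (adjusted p = 0.0293), smaller than that against vector.

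Growth and metabolism lists had positive medians and no calls in the fit without a replicate term. Of 29 cell cycle genes 26 had a positive log2 fold change, with a median of 0.22 and none called. None was called in any of the 9 leave-outs, and with the replicate 3 term 5 were called higher. Over all genes tested, 8.66% were called higher with that term, and 1216 of 15043 without vector 3. The mitotic kinases AURKA and PLK1 were at 45.5, 37 and 42.5 CPM against 58.1, 49.5 and 65.6 CPM and at 105, 108 and 129 CPM against 145, 122 and 165 CPM, with overlapping groups for PLK1. Of 22 genes of cholesterol synthesis 19 were positive, with a median of 0.25 and none called, 7 were called higher without vector 3, and 6 with the term. The enzymes SQLE and PMVK had log2 fold changes of 0.28 ± 0.09 with adjusted p = 0.106 and 0.55 ± 0.18 with adjusted p = 0.116, and the groups did not overlap for either.

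Among 22 genes of oxidative phosphorylation 20 were positive, with a median of 0.21 and none called, against 8 higher without vector 3 and 4 with the term. SDHC, a subunit of complex II, was at 77.9, 77.8 and 95.5 CPM and 115, 104 and 116 CPM (log2 fold change 0.42, SE 0.11, adjusted p = 0.0611), and NDUFA2 of complex I at 23.8, 25.6 and 37 CPM and 39.7, 38.6 and 49.9 CPM (log2 fold change 0.57, SE 0.19, adjusted p = 0.121). Of 25 ribosomal protein genes 24 were positive, with a median of 0.12 and none called, against 2 higher without vector 3 and 2 with the term. RPLP0 and RPL27 had log2 fold changes of 0.32 ± 0.09 with adjusted p = 0.0953 and 0.39 ± 0.14 with adjusted p = 0.161. For all genes tested the median was 0.01, with 8.66% called higher with the term. Without vector 3, 1216 of all 15043 genes tested were higher. No member of these 4 lists was called lower in either fit.

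Collagen and matrix genes split by the fit. In the fit without a replicate term 1 of 28, FN1, was called lower, none was called higher and the median log2 fold change was 0.30. With the replicate 3 term 9 were called higher and 3 lower, and without vector 3 the counts were 12 and 2. Over all genes tested, the term gave 8.66% higher and 9.83% lower. Without vector 3, 1216 of all 15043 genes tested were higher and 1342 lower. Genes of the ATF4 and endoplasmic reticulum stress response went the other way, with none of 17 called, a median of -0.34, and 8 called lower with the term and 7 without vector 3. PPP1R15A, the phosphatase subunit that restores translation, was at 593, 565 and 303 CPM and 198, 241 and 103 CPM (log2 fold change -1.43, SE 0.35, adjusted p = 0.0566), and XBP1 had a log2 fold change of -0.42 ± 0.10 with adjusted p = 0.0615.

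Lists of Wnt, retinoic acid, monoamine and heat shock genes held no call in the fit without a replicate term. With the replicate 3 term 2 of 18 Wnt genes were called higher, 1 of 14 retinoic acid genes lower, 2 of 14 monoamine genes lower and 1 of 12 heat shock genes each way. Over all genes tested, that term gave 9.83% lower and 8.66% higher. Without vector 3 each of these lists held 1 or 2 calls, beside 1342 lower and 1216 higher of all 15043 genes tested. LGR5, a Wnt target and R-spondin receptor, was at 2.24, 2.05 and 8.51 CPM in vector, 20.4, 16.9 and 16.2 CPM in dEx1 and 1.02, 1.57 and 0.722 CPM in FL. Vector 3 lay between the other vector libraries and dEx1, and the test against vector was missed (log2 fold change 2.06, SE 0.54, adjusted p = 0.0689), while dEx1 was above FL (log2 fold change 4.02, SE 0.59, adjusted p = 0.00282). The ligand WNT3 was at 12.3, 12.9 and 13.2 CPM and 29.7, 30.2 and 15.3 CPM (log2 fold change 0.97, SE 0.35, adjusted p = 0.149), with dEx1 3 near vector. The retinal reductase DHRS3 and the receptor RARB had log2 fold changes of -1.82 ± 0.65 with adjusted p = 0.145 and -0.93 ± 0.39 with adjusted p = 0.207. GCH1, which makes the cofactor of monoamine synthesis, was at 65.3, 22 and 30.5 CPM and 13.3, 15.8 and 7.42 CPM (log2 fold change -1.69, SE 0.43, adjusted p = 0.062). The chaperones DNAJA1 and HSPA4L had log2 fold changes of -0.27 ± 0.09 with adjusted p = 0.129 and 0.70 ± 0.24 with adjusted p = 0.14.

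**Figure D5:**
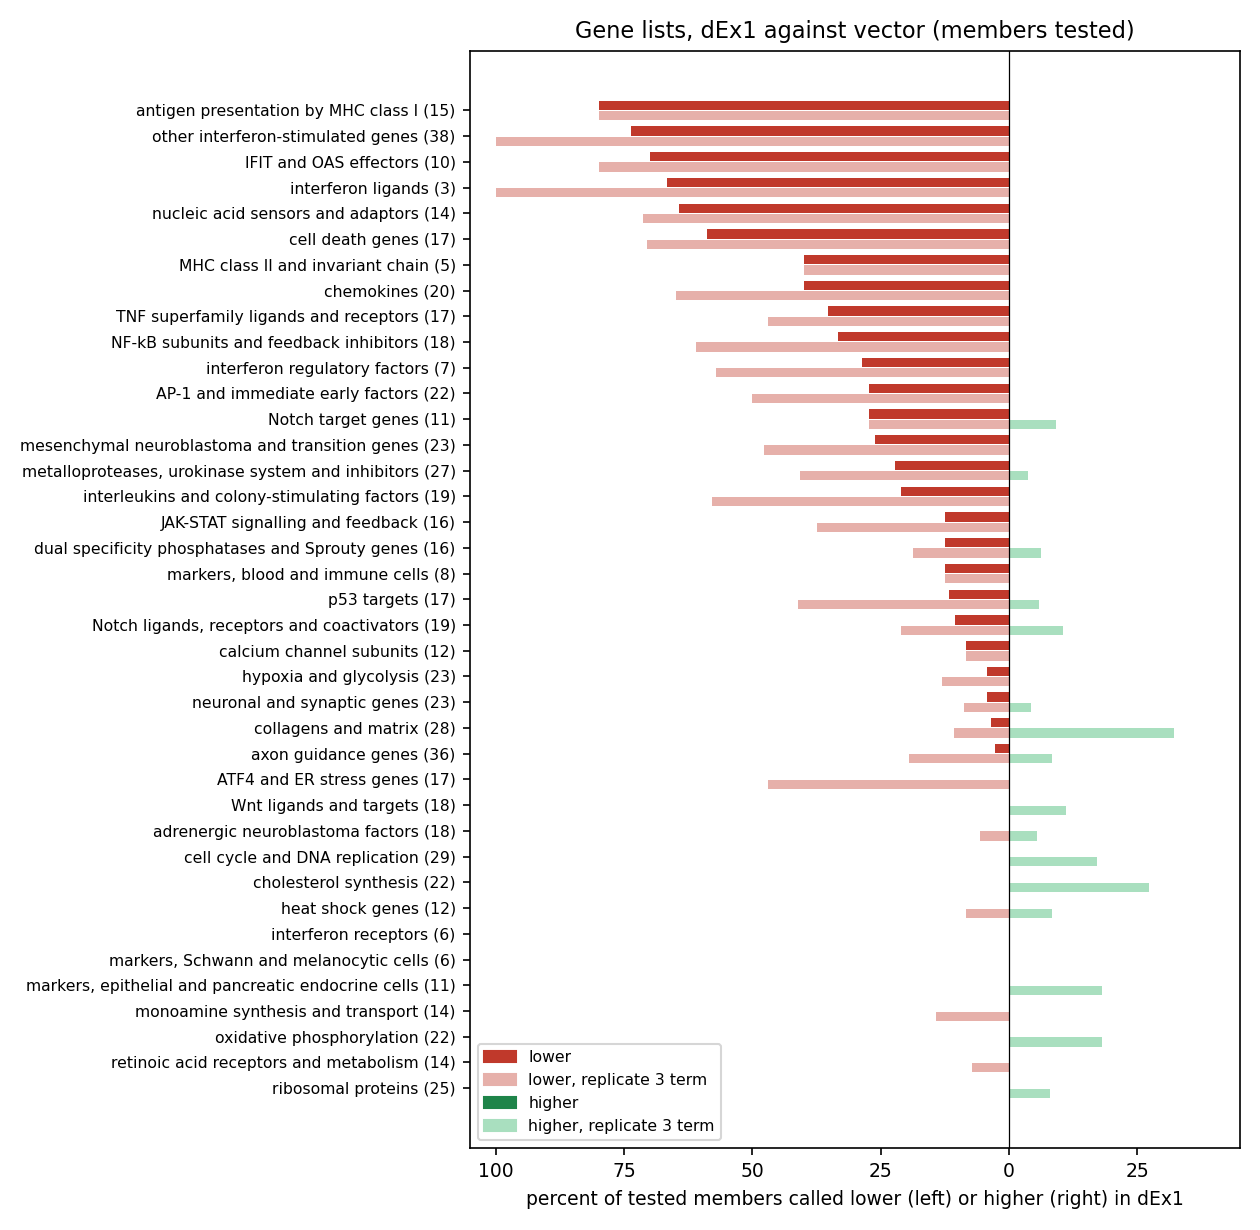
Percent of the tested members of each gene list called lower (left) or higher (right) in dEx1 against vector, in the fit without a replicate term (dark bars) and with a replicate 3 term (light bars); the number tested is in parentheses. The lists at the top are those of antigen presentation and interferon response; no list has a dark bar to the right.

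The same lists were counted against FL, with the same dEx1 libraries. Of the 38 other interferon-stimulated genes 35 were called lower in dEx1 than in FL, with a median log2 fold change of -1.33 (against vector -1.31). Of 20 chemokines 18 were lower than in FL, and of 19 interleukin genes 17. Over all genes tested, 11.5% were called lower than in FL and 10.5% higher. Some lists went the other way. Of 28 collagen and matrix genes 11 were higher than in FL and 3 lower, and of 22 cholesterol synthesis genes 10 were higher and none lower. Of 17 p53 targets 6 were higher and 4 lower. For CCL5 the FL libraries held 2542, 3916 and 4456 CPM against 671, 706 and 156 CPM in vector and 15.3, 25.2 and 6.82 CPM in dEx1. For IFNB1 the order of the 2 reference groups was the other way round, since each FL library was below each vector library.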

How the data were processed

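The deposited table holds whole-number estimated counts per gene symbol for 27 libraries of polyadenylated RNA. Per the submitters' processing notes, reads were trimmed with Trimmomatic, aligned to hg19 with HISAT2 and quantified with StringTie; their versions, the annotation and the step to counts are not given in the sources used here. The values pile up at 5, so what 1 sequenced fragment is worth is unknown, and 15 units were taken as a floor of 3 fragments. Of 23234 lines, 4 repeated a symbol and were left out; the values were already whole and were not rounded.

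The 9 SK-N-SH libraries were fitted together with edgeR 4.0.16 in R 4.3.3, with a coefficient for each group, edgeR's filter on low counts and TMM scaling. Every adjusted p is from edgeR's quasi-likelihood F test with Benjamini-Hochberg adjustment over 14674 genes, a call is an adjusted p under 0.05, and an SE is the log2 fold change divided by the root of F. At an unadjusted p under 0.05 there were 3328 genes. The total estimated count was 84575626 to 97874108 per vector or dEx1 library, so depth limits mainly the genes near 0. Samples were grouped by the construct and cell line in the labels. Each p-value sets a difference between 2 groups of 3 libraries against a spread estimated from all 9 SK-N-SH libraries and moderated across genes.

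Genes were named by a rule: the 15 largest rises and 15 largest falls among called genes whose groups did not overlap and whose higher group averaged 2 CPM or more, leaving out MAML3, uncharacterised loci and small RNAs; for each list up to 6 called members with the smallest p, or up to 2 where none was called; and members of the interferon ligand, receptor, sensor, regulatory factor, JAK-STAT, IFIT and OAS lists; some genes that the rule names are not reported here. The members and lists were chosen with earlier results of these data known. Alternatives were another scaling, other filters, DESeq2 1.42.0, a replicate block, a replicate 3 term, other sets of libraries and leaving out each library. Promoter windows were matched by Entrez gene identifier to RefSeq (GRCh38.p14), which held 77.7% of the genes tested.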

Additional observations from a re-analysis of the deposited data

How the results depend on the processing

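The number of genes called rested on single libraries and on how replicate 3 was treated. The direction of the 111 named and called genes did not change under any of 20 alternatives. The vector and dEx1 libraries of each called gene did not overlap, so refits of the same libraries could hardly reverse it. The unchanged direction is thus no separate support. Leaving out 1 library at a time gave 80 to 2558 genes called against vector, 3 to 1216 higher and 77 to 1342 lower, and 1857 to 4024 called against FL. The total was 1997 with the DESeq2 Wald test (666 higher, 1331 lower), 2714 with the replicate 3 term (1271 higher, 1443 lower; 5138 against FL), 300 with only the 6 libraries compared (41 higher, 259 lower) and 3267 without replicate 3 (1507 higher, 1760 lower; 4467 against FL). The fit with a replicate block called 2212 genes (982 higher, 1230 lower), and no named gene lost its call under that block. Same-numbered vector and dEx1 libraries had residual correlations of 0.0874, 0.292 and 0.461 over genes, which does not establish a pairing. Differently numbered ones ran from -0.405 (vector 3 with dEx1 2) to 0.284 (vector 1 with dEx1 2). Replicate 3 libraries also correlated with each other in the other group pairs, at 0.326 for FL 3 with dEx1 3 and 0.406 for vector 3 with FL 3. The share of lower calls among all calls was 81.4%, 66.6% with DESeq2, 55.6% with the block and 53.2% with the replicate 3 term. DESeq2 size factors, other filters, all 27 libraries, counts divided by 5 and leaving MAML3 out of the scaling kept the count within 1.5 times. Of the 111 genes, 48 lost their call with all 27 libraries, whose other cell lines share the estimate of spread, and 40 with only the 6 compared. Of the 43 named and uncalled genes, 4 near 0 changed sign: IFNAR1 (-0.012 without dEx1 1, 0.21 without replicate 3), MAVS (-0.0070 without replicate 3, 0.56 without vector 1), HEY1 (0.0030 without vector 2, -0.29 without replicate 3) and IRF3 (-0.0080 without vector 2, -0.014 without dEx1 1, -0.0022 without dEx1 2, 0.078 without replicate 3). The cause of these shifts was not tested. The leave-outs change the number of libraries and their identity together.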
